A study of Homo sapiens with 4 samples.

Results

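The genes described here are 10 enzymes that make, convert or inactivate androgens, out of 22985 genes named in total RNA sequencing of C4-2 and LNCaP prostate cancer cells, with 2 libraries per line. They were taken by symbol (HSD3B1, AKR1C3, SRD5A1, SRD5A3, HSD17B6, STS, HSD17B4, HSD17B10, HSD17B11 and CYP1B1), a choice made with earlier results of these data known, and all 10 had enough tags for the test, CYP1B1 through its LNCaP counts alone. C4-2 is a castration-resistant subline of LNCaP, selected by growth in castrated mice. LNCaP is an androgen-sensitive line from a lymph node metastasis, which the labels call primary, while they call C4-2 castration-resistant. Cells of both lines were grown in RPMI 1640 with serum depleted of steroids by charcoal, so neither group received androgen from the medium beyond what stripping leaves, and each group is a single cell line. Nothing in the labels tells separate cultures from repeat libraries of 1 culture, so the p-values measure the spread between these libraries, which may be technical.

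Each deposited data set is stored under the other line's name. Here a C4-2 library is one whose sample title says C4-2, and likewise for LNCaP; if the storage names are the correct ones, each direction given here is reversed. The depth on the sense strand, over genes with a symbol, was 163126630 and 119080520 tags in the C4-2 libraries, against 58925680 and 70459588 in the LNCaP libraries. As a share of the totals that the authors' RPKM values imply, these were 67.67% and 69.43% against 31.03% and 35.65%. Summed CPM in the C4-2 libraries, against the LNCaP libraries, was 1.4 to 1.58 against 1.68 to 2.02 for immune markers, 3.38 to 3.65 against 4.28 to 4.58 for endothelial markers, 0.112 to 0.203 against 0 to 0.0706 for basal markers and 0.834 to 1.08 against 2.03 to 2.1 for liver markers. Of 15975 genes tested, 80.0% differed between the lines (edgeR quasi-likelihood test, Benjamini-Hochberg adjusted p under 0.05), 40.2% being higher and 39.7% lower in the C4-2 libraries. Scaled instead to the RPKM totals, all log2 fold changes moved up, their median by 1.016, and 87.5% of calls were higher, against 50.3% with the TMM scaling used here. Each direction given is therefore relative to the median gene, and genes that lie below 0 by less than this shift can take the opposite sign with those totals.

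Androgens are made from cholesterol in the gonads and adrenals, and prostate cells convert the circulating adrenal precursors further. STS frees precursors from their sulfate, HSD3B1 turns dehydroepiandrosterone into androstenedione, AKR1C3 reduces androstenedione to testosterone, and the steroid reductases yield dihydrotestosterone. Several hydroxysteroid dehydrogenases run the other way and oxidise active steroids, and some of them serve mainly in fatty acid or mitochondrial metabolism.

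All 10 genes differed between the lines, against the background of 80.0%, although CYP1B1, which entered through 1 line, had to differ. SRD5A1, SRD5A3, AKR1C3, STS, HSD17B4 and HSD17B10 were higher in the C4-2 libraries, and HSD3B1, HSD17B6, HSD17B11 and CYP1B1 were lower. Each of the 10 had all values of one line above those of the other, as did 89.9% of all tested genes. In bulk RNA, fewer expressing cells and less RNA per cell cannot be told apart. The median log2 fold change of the 10 (C4-2 over LNCaP) was 0.35, against -0.011 over all tested genes, and their median absolute value was 1.0, against 0.64. A fold change of 2 or more, with the test passed, was seen for AKR1C3 among those higher (background 11.7%) and for HSD3B1, HSD17B6, HSD17B11 and CYP1B1 among those lower (background 18.1%). CYP1B1, which entered through 1 line, had to be among the latter, and it is also counted in both medians of the 10. Levels between lines are given as CPM (tags per 1000000 sense tags after TMM scaling), so that each change is relative to the typical gene.

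**Figure D1:**
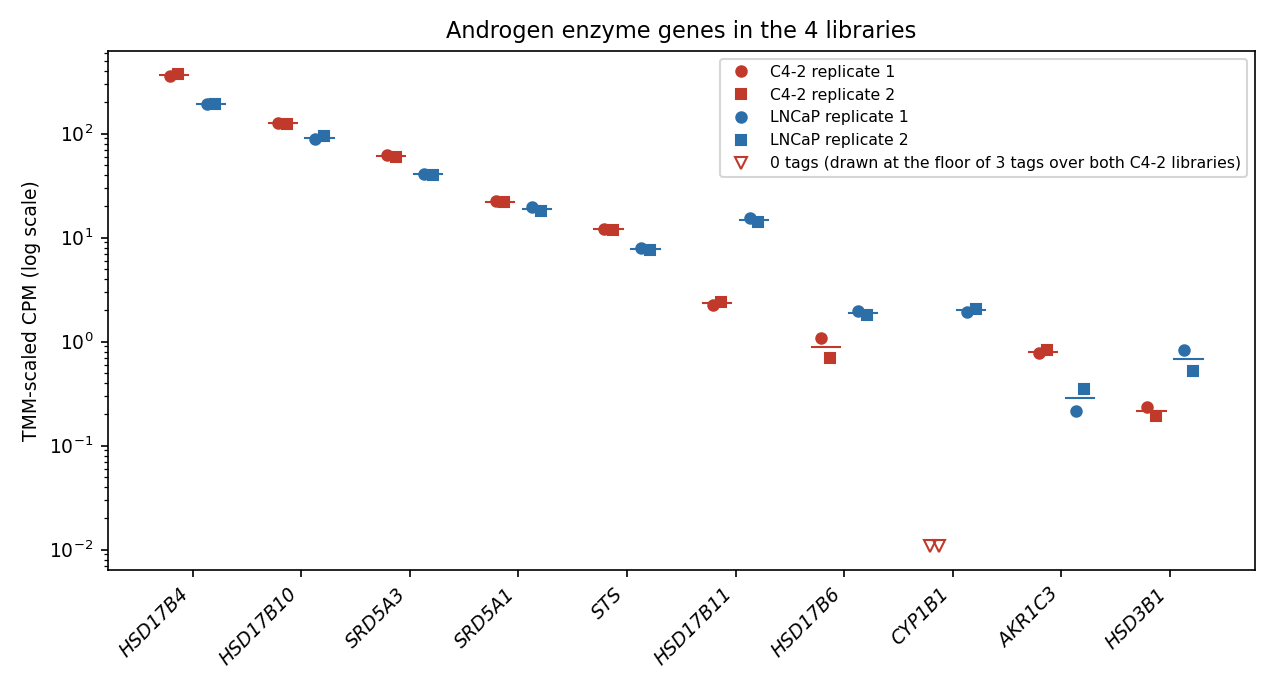
TMM-scaled CPM (log axis) of the 10 enzyme genes in each library, with the C4-2 libraries left of the LNCaP libraries; circles are replicate 1, squares replicate 2 and lines the mean of each line. HSD17B4 lies highest, near 367 CPM in C4-2 and 193 CPM in LNCaP, and the open triangles mark the 0 tags of CYP1B1 in both C4-2 libraries, drawn at the floor of 0.0108 CPM.

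The stretches in front of some of these genes differ widely in how many CpG dinucleotides they hold, and 4 are shown to span that range. Of the 10 genes, 8 have a promoter in the RefSeq set (300 bases around the start site, build GRCh38.p14). That set lists 5 promoters for STS and 2 each for HSD3B1, AKR1C3 and HSD17B10. Only the promoter nearest to the deposited start of each gene was used, and the others were not searched. The capitals mark each CG.
AKR1C3 (chr10:5094164-5094463, plus strand): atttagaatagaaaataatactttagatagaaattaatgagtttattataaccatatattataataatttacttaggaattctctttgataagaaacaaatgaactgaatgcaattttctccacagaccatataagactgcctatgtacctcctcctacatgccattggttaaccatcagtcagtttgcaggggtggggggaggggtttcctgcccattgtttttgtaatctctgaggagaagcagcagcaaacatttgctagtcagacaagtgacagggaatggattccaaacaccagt
HSD3B1 (chr1:119506953-119507252, plus strand): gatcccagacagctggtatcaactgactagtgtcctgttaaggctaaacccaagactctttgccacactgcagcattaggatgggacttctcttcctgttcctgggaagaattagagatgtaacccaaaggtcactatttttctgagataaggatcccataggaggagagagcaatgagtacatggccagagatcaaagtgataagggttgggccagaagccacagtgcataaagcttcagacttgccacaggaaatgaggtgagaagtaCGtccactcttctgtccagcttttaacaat
HSD17B11 (chr4:87391139-87391438, minus strand): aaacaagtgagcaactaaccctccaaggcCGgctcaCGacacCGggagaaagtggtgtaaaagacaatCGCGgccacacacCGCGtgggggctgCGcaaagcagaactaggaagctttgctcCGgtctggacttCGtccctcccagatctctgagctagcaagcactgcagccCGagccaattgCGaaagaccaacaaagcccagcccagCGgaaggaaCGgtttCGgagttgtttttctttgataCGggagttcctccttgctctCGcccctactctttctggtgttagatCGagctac
SRD5A1 (chr5:6633190-6633489, plus strand): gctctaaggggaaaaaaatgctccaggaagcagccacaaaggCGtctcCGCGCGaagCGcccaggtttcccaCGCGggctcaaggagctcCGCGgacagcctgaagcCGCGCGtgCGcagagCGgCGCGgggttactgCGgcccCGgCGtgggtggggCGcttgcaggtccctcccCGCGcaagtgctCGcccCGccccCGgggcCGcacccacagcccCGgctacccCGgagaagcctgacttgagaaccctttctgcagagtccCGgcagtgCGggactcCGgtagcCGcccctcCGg
These windows held 0 CpG for AKR1C3, 1 for HSD3B1, 18 for HSD17B11 and 33 for SRD5A1, where 35116 promoters of the same length had a median of 14 (quartiles 4 and 28). The remaining windows held 5 for STS, 19 for HSD17B4, 26 for HSD17B10 and 31 for SRD5A3. The genes with 5 or fewer CpG (AKR1C3, HSD3B1 and STS) had means of 1.88 CPM per kb or less in both lines. Among those with 18 or more, HSD17B11 averaged 1.24 CPM per kb in the C4-2 libraries, below STS at 1.88, and 7.89 in the LNCaP libraries. The others of that group had means of 8.34 CPM per kb or more. A relation of CpG number to level was not tested. The letters AGAACA, a core of androgen response elements, were in none of the 8 windows on either strand, and in 14.8% of all promoters. The letters GCGTG, the core bound by the aryl hydrocarbon receptor, were in the windows of SRD5A1, HSD17B10 and HSD17B11, and in 36.5% of all promoters. The antioxidant response core TGACNNNGC was in that of SRD5A3 alone, against 13.3% of all promoters. Both strands were searched for each motif, GCGTG itself holds a CG, and a match is only a run of letters.

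The transcript for the step from dehydroepiandrosterone to androstenedione was low in both lines and lower in the C4-2 libraries. HSD3B1 lies on hg19 chromosome 1, 120049826 to 120057681, plus strand. The C4-2 libraries, richer in sense tags of named genes, had 38 and 23 of its tags, against 50 and 37 in the LNCaP libraries. This was 0.236 and 0.195 CPM against 0.832 and 0.523 CPM, so both C4-2 values lay below both LNCaP values. The log2 fold change was -1.62 ± 0.33 (SE, adjusted p = 0.00205), or 3.07-fold lower. Scaled to the library totals behind RPKM, HSD3B1 stood at -0.61 ± 0.36 and did not pass (adjusted p = 0.104). Its sister gene HSD3B2, the form of the adrenals and gonads, had 5 and 2 tags against 7 and 5 and was too low for the test. The transcripts of the pair are 91.5% identical, and 5.86% of the 50-base words of HSD3B1 also occur in HSD3B2, so some tags could belong to either. HSD3BP4, of the same family by name, lies 48821 bases away on the same strand and stood at -1.64 ± 0.57 (adjusted p = 0.0278). Its sharing of words with HSD3B1 was not computed, so tags shared with it were not assessed.

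AKR1C3, which makes testosterone from androstenedione, was higher in the C4-2 libraries. The gene (chromosome 10, 5136568 to 5149878, plus strand) had 124 and 98 tags in the C4-2 libraries, against 13 and 25 in the LNCaP libraries. In CPM these were 0.772 and 0.831 against 0.216 and 0.353. Both lines expressed it at a low level, and the LNCaP values differed more among themselves than the C4-2 values. The log2 fold change was 1.46 ± 0.29 (adjusted p = 0.00175), which lies at the 94.7th percentile of all tested genes.

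Its neighbours AKR1C1 and AKR1C2, whose products mainly inactivate dihydrotestosterone and progesterone, were higher too. AKR1C1 averaged 1.08 ± 0.097 CPM in the C4-2 libraries and 0.344 ± 0.0074 CPM in the LNCaP libraries (SD, n = 2 each), a log2 fold change of 1.65 ± 0.23 (adjusted p = 0.000245). AKR1C2 stood at 1.66 ± 0.22 (adjusted p = 0.000165). AKR1C3 shares 11.9% of its 50-base words with AKR1C1, 14.9% with AKR1C2 and 9.59% with AKR1C4, and AKR1C2 shares 45.7% with AKR1C1. The split of tags between these genes is therefore uncertain, and the 3 fold changes are not independent. AKR1C3 took 25.2% and 28.0% of the tags of AKR1C1, AKR1C2 and AKR1C3 in the C4-2 libraries (exact binomial interval at 95%, 21.4% to 29.2% and 23.4% to 33.0%). In the LNCaP libraries it took 23.6% and 33.3% (13.2% to 37% and 22.9% to 45.2%). These intervals, which cover counting error only, overlap between the lines, so no shift within the cluster was detectable at this depth. AKR1C4, the liver form, had 18 and 12 tags against 1 and 3.

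The shorter AKR1C3 entry, which ends at 5140368, held 30 and 25 tags in the C4-2 libraries and 1 and 3 in the LNCaP libraries. That is 24.2% and 25.5% against 7.69% and 12.0% of the tags of the full entry, the LNCaP shares resting on 13 and 25 tags. The entry that begins upstream, at 5090958, counted 122 and 97 against 13 and 24 tags, nearly the same ones as the full entry.

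The steroid reductase genes were moderately higher. SRD5A3 (chromosome 4, 56212388 to 56239266, plus strand), an enzyme of this family that also serves the making of dolichol, the lipid carrier of N-glycans, had 62.5 and 60.2 CPM in the C4-2 libraries, against 40.8 and 40.5 CPM in the LNCaP libraries. SRD5A3 thus stood at a log2 fold change of 0.59 ± 0.049 (adjusted p = 9.91e-06), and the values were close within each line. SRD5A1 (chromosome 5, 6633500 to 6669675, plus strand), the reductase that leads among the family in prostate cancer that has recurred, had 22.3 and 22.0 CPM against 19.8 and 18 CPM. That difference was the smallest of the 10, a log2 fold change of 0.23 ± 0.065 (adjusted p = 0.0107). It did not pass with a stricter filter on low counts (0.15, adjusted p = 0.0602). SRD5A2, the form of the normal prostate, had 4 and 2 tags in the C4-2 libraries and 4 and 4 in the LNCaP libraries.

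SRD5A1 starts 26 bases from NSUN2, an RNA methyltransferase gene on the other strand, and the bases between the deposited start sites are shown because the entries of both genes start at its edges. The capitals again mark each CG.
gap between NSUN2 and SRD5A1 (hg19 chr5:6633474-6633499, plus strand): ctcccCGCGcaagtgctCGcccCGcc
NSUN2 was also higher in the C4-2 libraries, at a log2 fold change of 0.91 ± 0.042 (adjusted p = 3.78e-07), against 0.23 for SRD5A1. On the strand opposite to SRD5A1 lay 5 and 1 tags in the C4-2 libraries and 0 and 3 in the LNCaP libraries.

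HSD17B6 was lower. Its product oxidises androstanediol back to dihydrotestosterone. The gene (chromosome 12, 57157108 to 57181574, plus strand) had 173 and 83 tags in the C4-2 libraries, against 118 and 129 in the LNCaP libraries. In CPM these were 1.08 and 0.703 against 1.96 and 1.82, so the C4-2 libraries differed among themselves but stayed below both LNCaP libraries. HSD17B6 stood at a log2 fold change of -1.07 ± 0.22 (adjusted p = 0.00253). Scaled to library totals it was -0.07 ± 0.22 (adjusted p = 0.78).

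STS, the sulfatase that releases dehydroepiandrosterone and oestrone from their sulfates, was higher in the C4-2 libraries. The gene (chromosome X, 7137472 to 7272682, plus strand) had 12.1 and 11.8 CPM there, against 7.96 and 7.59 CPM in the LNCaP libraries, with no overlap. This was a log2 fold change of 0.62 ± 0.075 (adjusted p = 9.38e-05). SUMF1, which activates sulfatases after their synthesis, was higher as well, at 72.1 ± 0.30 CPM against 31.8 ± 0.71 CPM (log2 fold change 1.18 ± 0.049, adjusted p = 2.25e-07). SULT2B1, a gene for a sulfotransferase that acts in the opposite sense on steroids, was lower at -1.0 ± 0.12 (adjusted p = 9.08e-05).

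**Figure D2:**
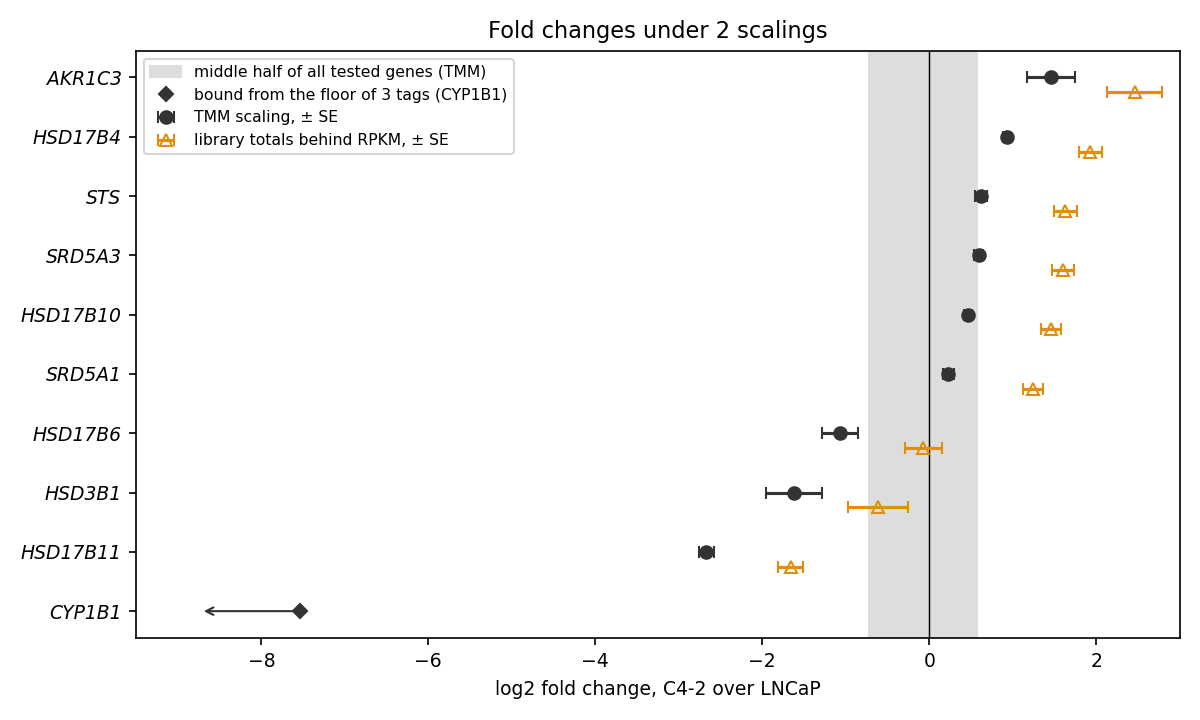
Log2 fold change of each gene (C4-2 over LNCaP) with its SE, under TMM scaling (circles) and scaled to the library totals behind RPKM (triangles); the grey band spans the quartiles of all tested genes under TMM, -0.72 and 0.57. Each triangle lies about 1 unit right of its circle, which brings HSD17B6 to -0.07. The diamond and arrow give the bound of -7.54 for CYP1B1 under TMM scaling only.

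The dehydrogenases with duties beyond steroids were the most abundant of the 10. HSD17B4 encodes the multifunctional protein of peroxisomal fatty acid oxidation, whose dehydrogenase part also oxidises oestradiol and androgens. The gene (chromosome 5, 118788202 to 118878030, plus strand) had 362 and 372 CPM in the C4-2 libraries, against 195 and 192 CPM in the LNCaP libraries. Both pairs were tight and far apart, with a log2 fold change of 0.93 ± 0.041 (adjusted p = 3.06e-07). Its 3 entries, of 2874, 2685 and 2631 bases of exon, counted nearly the same tags, the least of them 97.7% and 97.7% of the kept entry in the C4-2 libraries and 97.9% and 97.8% in the LNCaP libraries.

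HSD17B10 encodes a mitochondrial dehydrogenase of isoleucine breakdown that oxidises steroids and is also a subunit of mitochondrial RNase P. The gene (chromosome X, 53458206 to 53461323, minus strand) had 127 and 125 CPM in the C4-2 libraries, against 88.3 and 94.6 CPM in the LNCaP libraries, without overlap. Its log2 fold change was 0.46 ± 0.046 (adjusted p = 2.78e-05). Its shorter entry, 936 bases against 963, held 95.6% and 95.7% of its tags in the C4-2 libraries and 94.8% and 95.1% in the LNCaP libraries. The partners of HSD17B10 in RNase P did not pass the test. TRMT10C averaged 83.8 ± 2.6 CPM against 82.5 ± 1.6 CPM (0.02 ± 0.043, adjusted p = 0.649) and PRORP 64.9 ± 1.1 CPM against 63.9 ± 0.04 CPM (0.02 ± 0.043, adjusted p = 0.656).

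HSD17B11, whose product sits on lipid droplets and oxidises androstanediol to androsterone, was far lower in the C4-2 libraries. The gene (chromosome 4, 88257691 to 88312455, minus strand) had 361 and 284 tags there, against 922 and 1005 in the LNCaP libraries. In CPM these were 2.25 and 2.41 against 15.3 and 14.2, both pairs tight and well apart. The log2 fold change was -2.67 ± 0.092 (adjusted p = 1.03e-07), or 6.36-fold lower, at the 4.91th percentile of all tested genes. It was lower also when scaled to library totals (-1.66). HSD17B13, a related lipid droplet gene 13634 bases away on the same strand, stood at -1.01 ± 0.29 (adjusted p = 0.0122), but on 56 and 32 against 32 and 51 tags, with as many on the opposite strand (63 and 34 against 33 and 45), and the origin of its tags is uncertain. The pair shares 0% of 50-base words. HSD17B12, a reductase of fatty acid elongation in the same family, was lower at -0.79 ± 0.048 (adjusted p = 1.51e-06).

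CYP1B1 was not detected in the C4-2 libraries. It encodes a cytochrome P450 that hydroxylates oestradiol and other steroids and is a target of the aryl hydrocarbon receptor. The gene (chromosome 2, 38294746 to 38303323, minus strand) had 0 tags in both C4-2 libraries, against 116 and 146 tags in the LNCaP libraries, or 1.93 and 2.06 CPM. On the opposite strand lay 1 tag in one C4-2 library and none elsewhere. With a floor of 3 tags over both C4-2 libraries, 0.0108 CPM, it was at least 186-fold lower under TMM scaling. This bound was not computed with the library totals behind RPKM. Those totals moved the median log2 fold change of all genes up by 1.016, so the bound would be smaller there. The 4 markers of fibroblasts, which commonly express CYP1B1, summed to 2.75 to 2.78 CPM in the C4-2 libraries and 6.84 to 8.35 CPM in the LNCaP libraries. Nearly all of that sum was COL1A1. DCN had 0 and 0 tags in the C4-2 libraries and 4 and 3 in the LNCaP libraries, LUM, higher in sum in C4-2, had 20 and 2 against 0 and 4, and COL1A2 had 0 tags in every library. The part of these markers in the result was not tested. The gene for the receptor itself, AHR, was lower too, with 1.61 ± 0.32 CPM in the C4-2 libraries and 6.68 ± 0.10 CPM in the LNCaP libraries, a difference of -2.07 ± 0.15 on the log2 scale (adjusted p = 3.65e-06). Its dimer partner ARNT did not pass (0.02 ± 0.050, adjusted p = 0.742). CYP1A1, another target of this receptor, did not pass either, with 1.09 ± 0.20 CPM against 1.03 ± 0.16 CPM (0.09 ± 0.22, adjusted p = 0.716). The related CYP1A2 was lower (-1.08 ± 0.36, adjusted p = 0.0227), but on only 26 and 27 against 29 and 24 tags. On its opposite strand lay 25 and 20 against 13 and 18 tags.

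Per length, the order of the 10 genes was led by the same 4 in both lines. HSD17B10 averaged 131 ± 2.0 CPM per kb of exon in the C4-2 libraries and 95 ± 4.7 in the LNCaP libraries, and HSD17B4 128 ± 2.5 and 67.3 ± 0.86. Their ranges touched in the C4-2 libraries (129 to 132 for HSD17B10 and 126 to 129 for HSD17B4) and were apart in the LNCaP libraries (91.7 to 98.3 and 66.6 to 67.9). Together they made up at least 89.7% of the summed level per length of the 10 genes in both C4-2 libraries, against 83.9% and 85.1% in the LNCaP libraries. SRD5A3 followed with 15 ± 0.40 and 9.95 ± 0.058 CPM per kb, and SRD5A1 with 9.79 ± 0.089 and 8.34 ± 0.58.

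Below these the order differed between the lines. In the C4-2 libraries, STS (1.88 ± 0.039 CPM per kb) came before HSD17B11 (1.24 ± 0.061), AKR1C3 (0.655 ± 0.034), HSD17B6 (0.589 ± 0.17) and HSD3B1 (0.129 ± 0.018), and CYP1B1 was last with 0 tags. The ranges of AKR1C3 and HSD17B6 overlapped there. In the LNCaP libraries, HSD17B11 (7.89 ± 0.43) stood beside SRD5A1, with overlapping ranges. HSD17B6 (1.3 and 1.21) and STS (1.22 ± 0.041) overlapped, as did HSD3B1 (0.404 ± 0.13) and CYP1B1 (0.386 ± 0.018). AKR1C3 was lowest at 0.233 ± 0.079, below the range of HSD3B1.

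**Figure D3:**
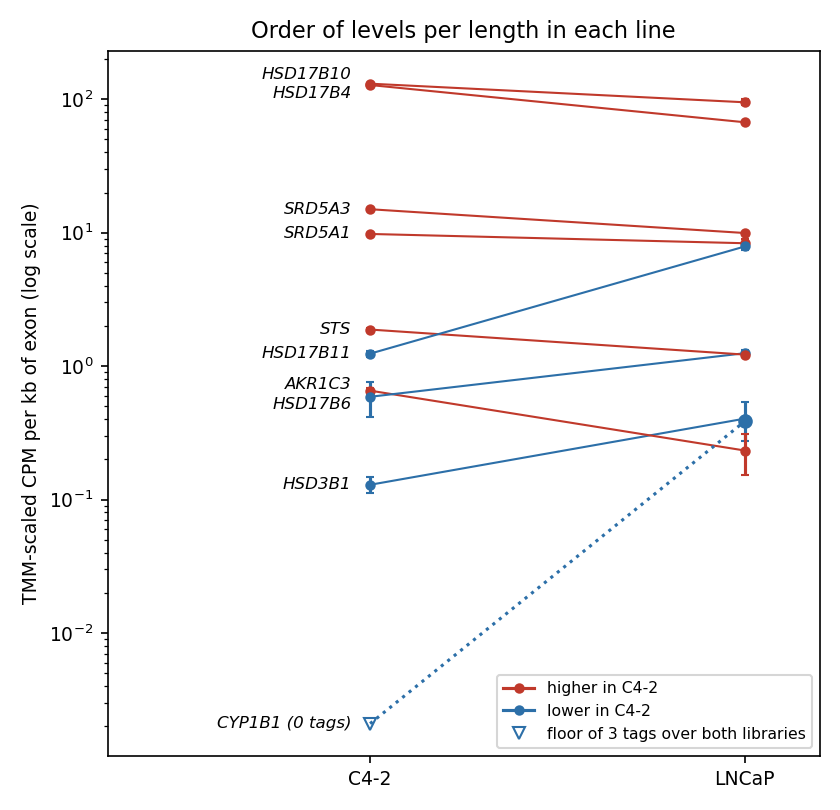
Mean level per kb of exon (TMM-scaled CPM per kb, log axis, bars SD, n = 2) in C4-2 at the left and LNCaP at the right, 1 line per gene, red where higher in C4-2 and blue where lower. The 4 upper genes keep their order, HSD17B11 stands at 1.24 in C4-2 and 7.89 in LNCaP, and the triangle marks the floor of CYP1B1.

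Of CYP11A1 and CYP17A1, which act in the first steps from cholesterol, the transcript of CYP11A1 was low and that of CYP17A1 barely present. The 6 markers of adrenal and gonadal cells summed to 0.952 to 1.0 CPM in the C4-2 libraries and 1.45 to 1.74 CPM in the LNCaP libraries, with CYP11B1 at 0 tags. CYP17A1, the lyase without which no androgen is made from cholesterol, had 0 and 2 tags in the C4-2 libraries and 0 and 3 in the LNCaP libraries. CYP11A1, which cleaves the side chain of cholesterol, averaged 0.404 ± 0.044 CPM and 0.853 ± 0.053 CPM and was lower in the C4-2 libraries (log2 fold change -1.07 ± 0.24, adjusted p = 0.00327). HSD17B3, the testicular enzyme for testosterone, had 3 and 11 against 6 and 6 tags, and the aromatase gene CYP19A1 had 2 and 5 against 0 and 0. The genes that hand electrons to mitochondrial P450s were higher, FDXR at 1.51 ± 0.091 and FDX1 at 0.55 ± 0.046, and so was the cholesterol carrier STARD3 at 0.59 ± 0.055. CYB5A, which favours the lyase step of CYP17A1, was slightly lower at -0.20 ± 0.044 (adjusted p = 0.0029).

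Among 75 further genes of steroid handling and of the other duties of these enzymes, 61 were tested. In the C4-2 libraries 31 were higher and 19 lower, with a median log2 fold change of 0.23. A further 11 did not pass, 12 were too low to test and 2 have no entry here. The 82.0% that passed were near the background of 80.0%. Of 10 other hydroxysteroid dehydrogenases tested, 4 were higher and 5 lower, with HSD3B7, of bile acid synthesis, at 1.28 ± 0.074, H6PD, which supplies cofactor to such enzymes in the endoplasmic reticulum, at 0.76 ± 0.049 and CBR4, a reductase of mitochondrial fatty acid synthesis, at -0.49 ± 0.060. Of 8 other reductases and back-converting enzymes 4 were higher and 3 lower, with the retinol dehydrogenase gene RDH11 at 0.98 ± 0.033 and TECR, a reductase of fatty acid elongation, at 0.66 ± 0.060. RDH11, which is abundant in prostate epithelium, averaged 881 ± 9.6 CPM in the C4-2 libraries and 447 ± 3.8 CPM in the LNCaP libraries.

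Conjugating enzymes showed 3 of 7 tested genes of sulfation and sulfatase activation higher and 2 lower, with SUMF2 at 0.23 ± 0.048 and SULT1A1 at 0.46 ± 0.085. In glucuronidation, which clears androgens from prostate cells, 5 of 7 were higher and none lower, at a median of 0.70; the 71.4% called were below the 80.0% of all tested genes, of which 40.2% were higher. UGT2B11 stood at 2.39 ± 0.12, UGT2B28 at 2.33 ± 0.19 and UGT2B10 at 2.28 ± 0.17, from low LNCaP means of 1.5, 0.58 and 0.798 CPM. The more abundant UGT2B15 differed less, with 27.7 ± 0.63 CPM in the C4-2 libraries and 22.5 ± 0.30 CPM in the LNCaP libraries (0.30 ± 0.054). UGT2B17, with 27.2 ± 0.63 against 25.2 ± 0.20 CPM, did not pass (0.11 ± 0.054, adjusted p = 0.085). UGDH, which makes the glucuronic acid donor, stood at 0.70 ± 0.041. Since UGT2B genes are near copies, the split of their tags is uncertain. Of 8 tested genes of oestrogen formation and P450 hydroxylation 2 were higher and 4 lower. Among them CYP3A5 stood at 1.10 ± 0.23, against -2.0 ± 0.31 for CYP3A43.

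Around HSD17B4, 7 of 9 genes of peroxisomal oxidation were higher and 2 lower, beside 40.2% and 39.7% of all tested genes, with a median of 0.81 against -0.011. The oxidase gene ACOX2 stood at 0.97 ± 0.059 and the thiolase gene ACAA1 at 1.07 ± 0.067. AMACR, the racemase that feeds branched fatty acids into the pathway, was the exception in size, with 28.9 ± 0.79 CPM in the C4-2 libraries and 226 ± 5.7 CPM in the LNCaP libraries (-2.97 ± 0.047, adjusted p = 3.56e-09). Beside SRD5A3, the dolichol genes DOLK, DHDDS and NUS1 were higher (0.77 ± 0.060, 0.55 ± 0.070 and 0.43 ± 0.045) and DPAGT1, the first enzyme of N-glycan assembly, was lower (-0.24 ± 0.068). With library totals 48 of 62 tested genes of all these lists were higher and 4 lower, beside 73.1% and 10.5% of all tested genes.

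**Figure D4:**
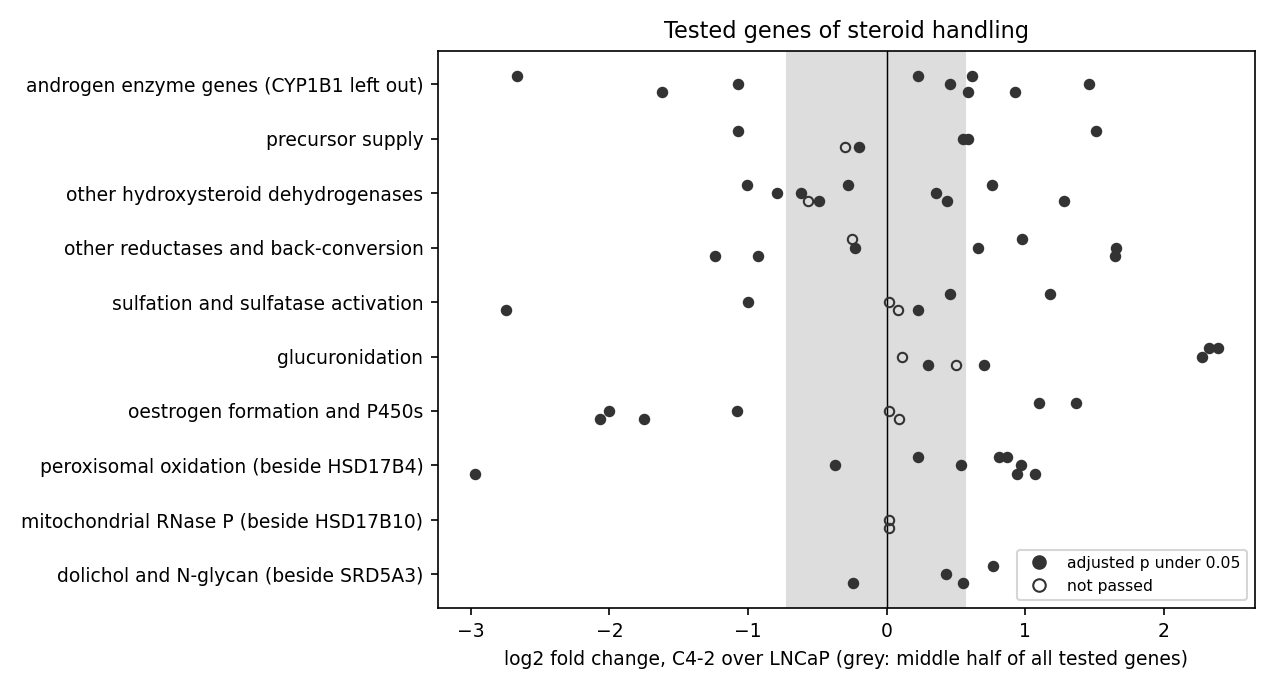
Log2 fold change (C4-2 over LNCaP) of each tested gene by group, filled where the adjusted p was under 0.05 and open where not; the grey band spans the quartiles of all tested genes. Glucuronidation genes lie at or above 0.11, peroxisomal genes lie mostly between 0.23 and 1.07 with AMACR at -2.97, and both RNase P partners of HSD17B10 lie at 0.02.

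Of the 20 nearest tested neighbours of the 10 genes, 1 on each side, 10 were called in the direction of their enzyme gene, 3 against it and 7 did not pass, where over all tested genes 80.0% were called, 40.2% higher and 39.7% lower. These neighbours were not in the rule for named genes and were chosen after values had been seen. Those called in the same direction include AKR1C2, which shares words with AKR1C3, and HSD3BP4, whose sharing with HSD3B1 was not computed. They also include HSD17B13, whose tags are of uncertain origin. Neighbours in that count may therefore not all be independent of their enzyme gene. RIBC1, 142 bases from HSD17B10 on the other strand, was lower (-0.87 ± 0.12, adjusted p = 0.000205) while HSD17B10 was higher. Beside CYP1B1, RMDN2 did not pass (-0.22 ± 0.18, adjusted p = 0.292) and ATL2 was lower by a small amount (-0.40 ± 0.040). Beside HSD17B11, NUDT9 did not pass (0.03 ± 0.050, adjusted p = 0.648). The only listed gene that overlaps any of the 10 is SRD5A3-AS1, on the opposite strand, with 5 and 8 tags in the C4-2 libraries and 4 and 0 in the LNCaP libraries. Opposite-strand tags of SRD5A3 numbered 47 and 31 against 14 and 20.

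2 androgen-responsive genes were read beside the enzymes. KLK3, the gene for prostate-specific antigen, averaged 6.18 ± 0.066 CPM in C4-2 and 545 ± 17.0 CPM in LNCaP (-6.46 ± 0.055). FKBP5, an androgen-induced co-chaperone gene, averaged 82.5 ± 1.1 and 45.6 ± 1.1 CPM in C4-2 and LNCaP (0.86 ± 0.045). The share of sense tags of named genes in the totals that RPKM implies moved with the lines (67.67% and 69.43% against 31.03% and 35.65%), and its part in these differences was not tested.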

How the data were processed

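The deposited data hold 1 library per sample, with 2 libraries for each of C4-2 and LNCaP. Per the labels' protocols, RNA was depleted of ribosomal RNA and prepared with an Illumina TruSeq kit. The submitters' processing notes name TopHat2 2.0.6, Bowtie and the hg19 build. Per the file headers, the authors' tables give counts of tags and their RPKM on both strands for 41351 RefSeq entries; the counting tool is not given in the sources used here. RPKM, as the authors computed it, served to recover library totals (171507351 to 241071254 tags) and exon lengths, from which levels per kb were computed.

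Accessions were named through RefSeq (GRCh38.p14, names only; 38974 of 40304 matched), and the entry with the highest share of sense tags was kept per gene. Entries with no symbol (2.06% to 2.15% of sense tags) were left out. Coordinates are hg19, counted from 1. The sense column follows the gene strand, since 1.29% to 1.99% of tags lay opposite. Counts were tested with edgeR 4.0.16 (R 4.3.3; filterByExpr, TMM, quasi-likelihood, line as the only term), with Benjamini-Hochberg adjustment over all genes; each SE is the fold change divided by the root of F. The fit was tested on simulated data. DESeq2 1.42.0, other scalings, filters, counts of other entries or strands, and omission of libraries were alternatives. Replicates differed beyond sampling noise (chi-square per degree of freedom 12.7 for C4-2 and 25.6 for LNCaP). Intervals and floors cover counting error only, since the tags carry no molecular identifiers.

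The 10 genes and the gene lists were chosen with earlier results of these data known. Named were all 10, up to 4 called genes of each list by adjusted p (up to 3 by level where fewer than 2 were called), near copies, overlapping entries, and KLK3 and FKBP5; others (HSD17B3, CYP11A1, CYP17A1, CYP19A1, CYP1A1, ARNT, SRD5A2, TRMT10C and PRORP among them) are added where a step of the pathway needs them. Identity and shared words were computed on GENCODE v44lift37 transcripts of GRCh37 with Biopython 1.88. Some genes of the lists are not reported here.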

Additional observations from a re-analysis of the deposited data

How the results depend on the processing

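Of the 128 refits of the 10 single-gene fold changes, 125 kept the direction and the side of the threshold and 3 lost the call, which were HSD3B1 and HSD17B6 with library totals behind RPKM (-0.61 and -0.07) and SRD5A1 with the stricter filter (0.15); none turned direction. Apart from library totals, HSD17B4 ranged from 0.84 to 0.97, HSD17B11 from -2.75 to -2.61, AKR1C3 from 1.18 to 1.88 and HSD3B1 from -1.93 to -1.26. HSD3B1 and AKR1C3 were not tested under the stricter filter, where 4 enzyme genes were higher and 3 lower. With library totals, 11626 genes were higher and 1664 lower (87.5% of calls higher, against 50.3%), 6 enzyme genes were higher and 2 lower, and 48 wider pathway genes were higher and 4 lower; the median of all genes moved by 1.016. Leaving out 1 library at a time gave 6 enzyme genes higher and 4 lower each time.

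The replicate numbers are shared by the lines, but the deviations of replicate 1 were only weakly, and negatively, related between the lines (correlation over 11068 genes -0.186). With the replicate block 6260 genes were higher and 6141 lower, and 6 enzyme genes were higher and 4 lower. A crossed block, added after seeing the data, gave 6534 and 6323 genes. Low counts limit AKR1C3 and HSD3B1, whose least library held 13 and 23 tags.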
